A study of Mus musculus with 6 samples.

Results

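The miRNAs described here are those whose hairpins lie inside the Hox clusters: miR-10a, miR-10b, miR-196a, miR-196b and miR-615. They were taken by name from a fixed list of 8 mature arms, of which 7 of 1065 names in the deposited table had a row (mmu-miR-10a-5p, mmu-miR-10a-3p, mmu-miR-10b-5p, mmu-miR-196a-5p, mmu-miR-196b-5p, mmu-miR-615-3p and mmu-miR-615-5p). The remaining arm, mmu-miR-10b-3p, was not analysed here. The libraries are small RNA from C2C12 cells, a mouse myoblast line derived from thigh muscle, with 3 libraries of control cells and 3 of cells given TGF-beta. Nothing in the labels states a dose, a duration, a TGF-beta isoform or whether the cells were dividing or fusing, and C2C12 is a single established line in both groups. The stated purpose was to learn the part that myoblasts play in muscle fibrosis.

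Hox genes encode transcription factors that give cells their position along the body and limb axes, and they sit in the clusters Hoxa, Hoxb, Hoxc and Hoxd in the order in which they are used. miRNA hairpins between or inside these genes are often transcribed with their Hox neighbours, so their levels can carry the same positional record. miR-196 is known to cleave Hoxb8 mRNA in mouse embryos, and miR-10b is known to repress HOXD10 in human cells. Adult limb muscle and its precursor cells keep Hox expression from development.

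The place of each hairpin was read from the GENCODE M21 annotation of GRCm38, by gene name, because the deposited table holds no coordinates. Mir10a on chromosome 11 lies between Hoxb5 and Hoxb4, outside both. Mir10b on chromosome 2 lies in introns of annotated Hoxd3 and Hoxd4 transcripts. Mir196a-1 on chromosome 11 lies between Hoxb13 and Hoxb9, and Mir196a-2 on chromosome 15 lies between Hoxc10 and Hoxc9, within an intron of a long Hoxc5 transcript. Mir196b on the minus strand of chromosome 6 overlaps Hoxa9, in exons of 2 of its transcripts and in an intron of the other. Mir615 on chromosome 15 lies in introns of Hoxc5.

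All 11 arms of these hairpins, the 8 listed and 3 passenger arms, were matched by name to mature sequences of RefSeq (GRCm38.p6). The 7 listed arms with a row are shown here, because the paralogs differ by so little that their counts depend on a single base. Capitals mark the seed, bases 2 to 8, which pairs with target mRNAs.
miR-10a-5p (Hoxb, chr11:96317186-96317208, plus strand): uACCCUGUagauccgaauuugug
miR-10b-5p (Hoxd, chr2:74726074-74726096, plus strand): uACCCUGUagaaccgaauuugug
miR-196a-5p (Hoxb, chr11:96265187-96265208, and Hoxc, chr15:102973365-102973386, plus strand): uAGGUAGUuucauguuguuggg
miR-196b-5p (Hoxa, chr6:52230129-52230150, minus strand): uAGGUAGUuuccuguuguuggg
miR-615-3p (Hoxc, chr15:103014969-103014990, plus strand): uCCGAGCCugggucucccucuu
miR-615-5p (Hoxc, chr15:103014926-103014947, plus strand): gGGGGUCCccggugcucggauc
miR-10a-3p (Hoxb, chr11:96317227-96317248, plus strand): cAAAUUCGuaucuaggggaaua

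miR-10a-5p and miR-10b-5p share their seed and 22 of 23 bases, and differ by U12A, with positions counted from 1 at the 5′ end and the base of miR-10a-5p given first. miR-196a-5p and miR-196b-5p share their seed and 21 of 22 bases, and differ by A12C. The same mature miR-196a-5p is cut from a Hoxb and from a Hoxc hairpin, so its reads cannot be assigned to either cluster. The sources used here do not say how reads with a mismatch were treated. The passenger arms of the miR-196a hairpins do differ, as the hairpins show, with the mature arms in capitals.
Mir196a-1 (Hoxb, chr11:96265164-96265265, plus strand): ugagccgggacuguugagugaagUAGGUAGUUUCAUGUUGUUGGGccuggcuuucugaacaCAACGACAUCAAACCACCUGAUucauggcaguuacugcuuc
Mir196a-2 (Hoxc, chr15:102973350-102973434, plus strand): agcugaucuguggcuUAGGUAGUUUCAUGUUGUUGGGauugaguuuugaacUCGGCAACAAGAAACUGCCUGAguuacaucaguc

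The libraries held 9015669 to 9813063 miRNA reads, so 1 read was worth 0.102 to 0.111 RPM (reads per 1000000 miRNA reads), and a listed 0 is bounded by 3 reads (0.306 to 0.333 RPM). Counting intervals and such floors cover counting error only. The read totals are sums over names. Some names had nearly equal values, such as miR-24-3p and miR-3074-5p (8528 and 8522 RPM on average in control). Whether reads were counted under more than 1 name was not tested. TGF-beta replicate 3 stood somewhat apart, with a mean correlation across miRNAs of 0.994 to its group, against 0.995 to 0.997 for the other libraries. miR-21a-5p took 27.03% ± 1.12 of the reads in control and 35.2% ± 1.41 after TGF-beta (SD, n = 3 each). The labelled cell type was checked by muscle miRNAs, whose 5 names summed to 134804 to 154422 RPM in control and 101338 to 102533 RPM in TGF-beta libraries. In the test described below, 3 of these 5 (miR-486a-5p, miR-206-3p and miR-1a-3p) passed as lower, beside 16 of all 418 tested names. The labels' extraction text speaks of retinas. Of 7 names known from retina and neurons, 6 had a row, summing to 7637 to 8661 RPM in control and 6368 to 8600 RPM in TGF-beta libraries, most of it from miR-9-5p, miR-182-5p and miR-183-5p, with miR-204-5p and miR-211-5p below 1 RPM (miR-204-5p listed at 0 in all 3 TGF-beta libraries) and 0 of 4 tested past the threshold. Names of blood (4 with a row), endothelium (2), epithelium (5) and liver (1) summed to at most 4.88, 25.02, 3.73 and 1.60 RPM in any library, and the 1 tested name in each did not pass. The part of these lists in the results below was not tested.

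Of the reads that belong to a single Hox cluster, most came from Hoxb, far fewer from Hoxc and Hoxa, and hardly any from Hoxd, while those of miR-196a-5p belong to Hoxb, Hoxc or both. The 7 arms together took 0.699% ± 0.0546 of each control library and 0.690% ± 0.0306 of each TGF-beta library on average (SD, n = 3 each). The Hoxb arms of miR-10a took 0.359% ± 0.0517 in control. miR-196a-5p, from Hoxb and Hoxc, took 0.253% ± 0.0026. The Hoxc arms of miR-615 took 0.0522% ± 0.0010, and the Hoxa arm miR-196b-5p took 0.0355% ± 0.00067. The Hoxd arm miR-10b-5p stood at 2.06 ± 1.06 RPM. All sequences are 22 or 23 bases long, so RPM values of different names need no length correction, but levels between names also depend on how well each end is ligated, which was not measured.

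**Figure D1:**
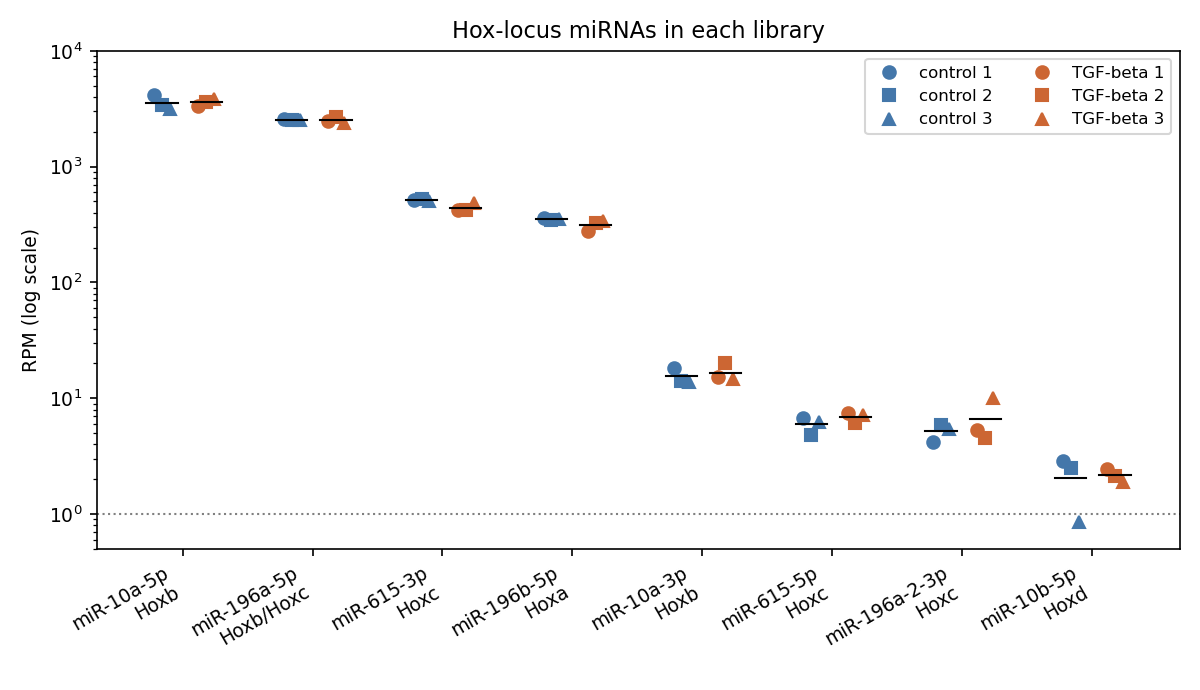
RPM on a log axis of the 7 Hox-locus arms and of the passenger arm miR-196a-2-3p in each of 6 libraries, with lines at the group means, the cluster of origin under each name and a dotted line at 1 RPM. The names span from 3571 RPM for miR-10a-5p to 2.06 RPM for its paralog miR-10b-5p in control, and the groups lie close together at each name.

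miR-10a-5p was the most abundant of these miRNAs and ranked 34 of 1065 names by its mean over the 6 libraries. Its values were 4144, 3418 and 3150 RPM in control and 3330, 3629 and 3838 RPM in TGF-beta libraries. The groups overlapped, and control replicate 1 was the highest of all libraries. Its mean of 3585 RPM lay between those of miR-29a-3p (3792 RPM) and miR-27a-3p (3383 RPM).

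miR-196a-5p ranked 41. It stood at 2555, 2504 and 2526 RPM in control and at 2493, 2674 and 2391 RPM in TGF-beta libraries. The control libraries lay within the treated range, and all 6 values were below the lowest value of miR-10a-5p. The ratio of miR-10a-5p to miR-196a-5p ran from 1.25 to 1.62 over the libraries.

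miR-615-3p, from the Hoxc5 intron, ranked 78 and miR-196b-5p, from Hoxa, ranked 90. miR-615-3p stood at 517, 526 and 505 RPM in control and at 422, 423 and 483 RPM in TGF-beta libraries. miR-196b-5p stood at 361, 348 and 355 RPM in control and at 278, 328 and 339 RPM in TGF-beta libraries. At both names all 3 treated libraries lay below all 3 control libraries, as they did at 51 of the 418 names tested below (12.2%). miR-615-3p was above miR-196b-5p in every library.

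miR-10b-5p, the Hoxd paralog, ranked 345. It had 28, 23 and 8 reads in control and 23, 20 and 17 reads in TGF-beta libraries, or 2.85, 2.48 and 0.853 RPM against 2.47, 2.12 and 1.89 RPM. Control replicate 3 was the lowest, with an exact Poisson interval (95%) of 3.45 to 15.8 reads, against 18.6 to 40.5 reads for control replicate 1. For every 10000 reads of miR-10a-5p there were 2.71 to 7.42 reads of miR-10b-5p, which differs from it by U12A. The part of miR-10a-5p reads with an error at that base in these counts was not tested.

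The paralog pairs stood far apart in their balance. The ratio of miR-10a-5p (Hoxb) to miR-10b-5p (Hoxd) was 1452, 1378 and 3691 in control and 1349, 1715 and 2035 in TGF-beta libraries. The ratio of miR-196a-5p (Hoxb and Hoxc) to miR-196b-5p (Hoxa) was 7.08, 7.20 and 7.11 in control and 8.96, 8.14 and 7.05 in TGF-beta libraries. Both pairs differ by a single base at position 12. On the log2 scale with 1 RPM added, the ratio of miR-10b-5p to miR-10a-5p was −10.2 ± 0.42 in control and −10.2 ± 0.24 with TGF-beta, with a two-sided exact permutation p of 0.8. That of miR-196a-5p to miR-196b-5p was 2.83 ± 0.01 and 3.00 ± 0.17, with an exact permutation p of 0.4. This difference of 0.17 was 0.087 when TGF-beta replicate 1 was omitted (exact permutation p = 0.4) and 0.26 when TGF-beta replicate 3 was (exact permutation p = 0.1, the smallest that 2 against 3 libraries allow). The smallest p that 3 against 3 libraries allow is 0.1. Over the 8 shares and ratios tested in this way, the Benjamini-Hochberg adjusted p was 1 for both. TGF-beta replicate 3 had a miR-196 ratio below all control libraries, whereas the other treated libraries were above them.

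**Figure D2:**
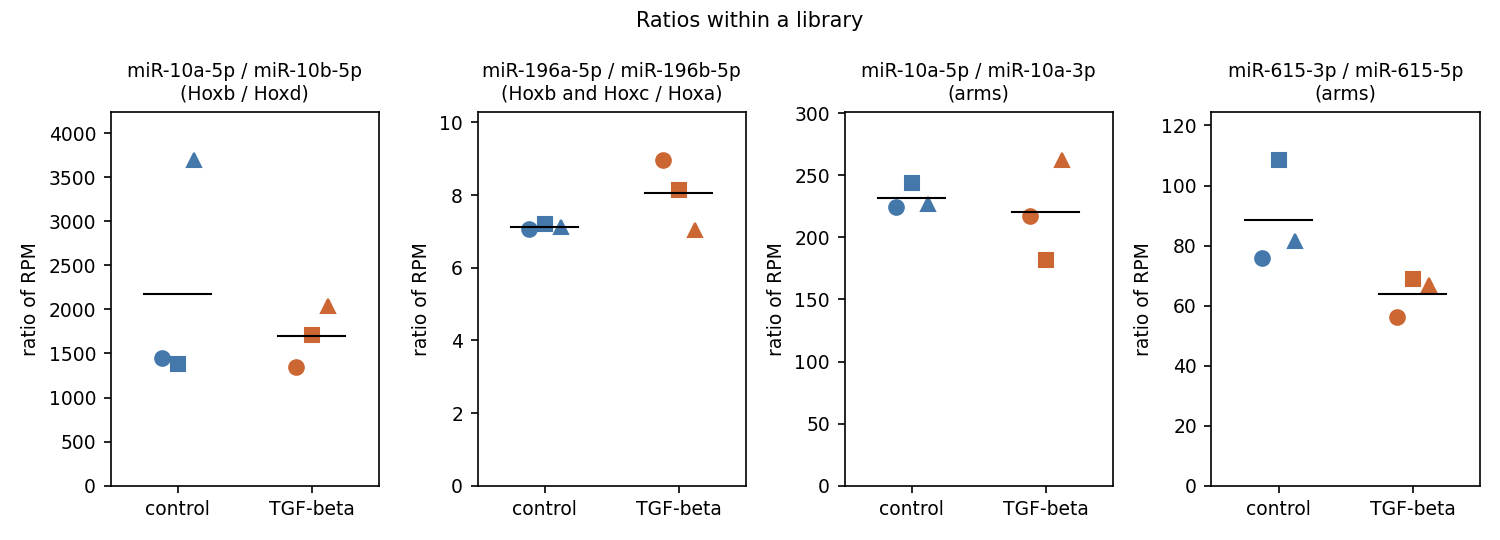
Ratio of RPM values within each library for the pairs of paralogs and for the arms of the miR-10a and miR-615 hairpins, with a point per library (circle, square and triangle for replicates 1, 2 and 3) and lines at the group means. Each vertical axis starts at 0. The ratio of miR-615-3p to miR-615-5p is the only 1 of the 4 whose groups do not overlap, as was so for the log2 arm ratios of 12 of 108 tested hairpins (11.1%).

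The passenger arms gave a further view of which hairpin was read. miR-196a-2-3p, cut from the Hoxc hairpin alone, had 41, 55 and 51 reads in control and 50, 43 and 91 reads in TGF-beta libraries. That is 4.18, 5.93 and 5.44 RPM against 5.37, 4.55 and 10.1 RPM, and TGF-beta replicate 3 was the highest. The corresponding Hoxb arm, miR-196a-1-3p, had no row in the deposited table, so the share of the Hoxb hairpin in miR-196a-5p is not known. miR-196b-3p was at 0 in control replicate 1 and TGF-beta replicate 3 and had 3 to 6 reads in the other libraries, at or near the floor, and was not tested.

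The miR-10a hairpin favoured its 5p arm and the miR-615 hairpin its 3p arm. miR-10a-3p stood at 18.4, 14.0 and 13.9 RPM in control and at 15.4, 20.0 and 14.6 RPM in TGF-beta libraries, so that its 5p arm was 181 to 262 times higher within a library. miR-615-5p stood at 6.83, 4.85 and 6.19 RPM in control and at 7.52, 6.14 and 7.21 RPM in TGF-beta libraries. Here the 3p arm was the abundant one, 75.7, 108 and 81.6 times higher in control and 56.1, 68.9 and 67.0 times higher with TGF-beta. miR-196a-5p was 237 to 611 times higher than miR-196a-2-3p, but its reads come from a pair of hairpins. In the order of mean levels over the libraries, miR-615-5p (6.46 RPM) and miR-196a-2-3p (5.93 RPM) were neighbours whose ranges overlapped. The ranges of the other neighbours in that order did not overlap.

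**Figure D3:**
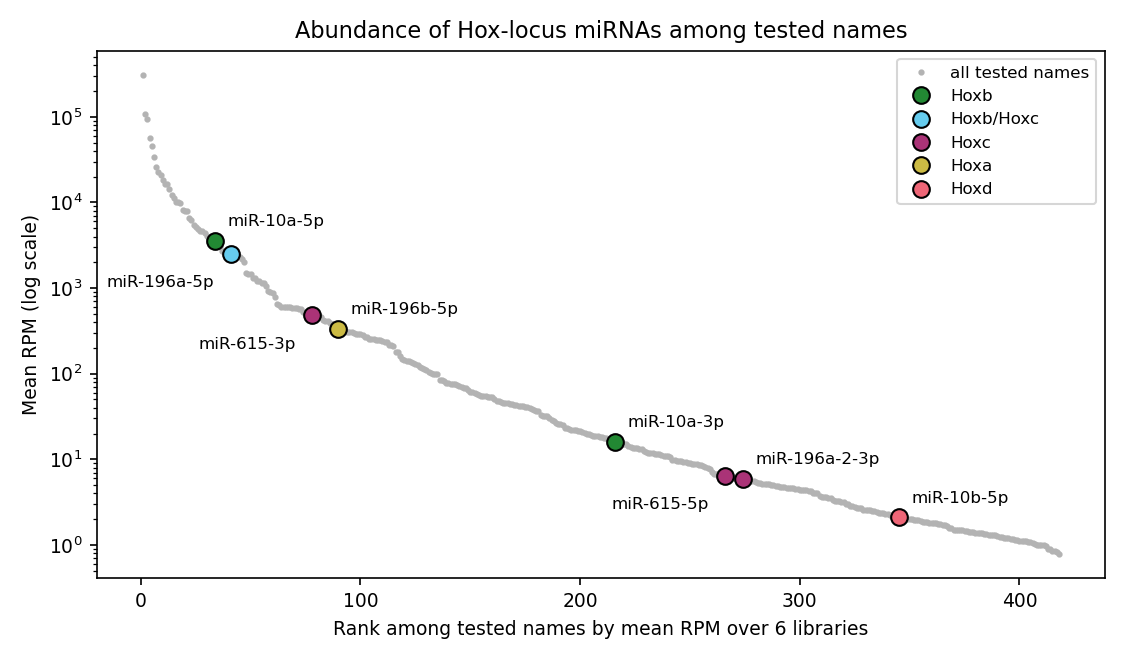
Mean RPM over 6 libraries on a log axis against rank for the 418 tested names (grey), with the Hox-locus arms coloured by cluster. The guide arms of Hoxb, Hoxc and Hoxa rank 34 to 90, the passenger arms 216 to 274 and the Hoxd arm miR-10b-5p 345.

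Seeds add paralogs together. Of the table's 1065 names, 865 were matched to a mature sequence, with 750 seeds. The miR-10 seed ACCCUGU had 2 names, miR-10a-5p and miR-10b-5p, and summed to 3151 to 4147 RPM, which ranked 20 among the seeds. The miR-196 seed AGGUAGU had 2 names, miR-196a-5p and miR-196b-5p, and summed to 2731 to 3002 RPM, which ranked 22. The seed CCGAGCC was that of miR-615-3p alone and ranked 48.

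Relatives outside the Hox clusters were more abundant. miR-99a-5p, miR-99b-5p and miR-100-5p belong to the same ancient family as miR-10 and share a run of bases with it, but start with the seed ACCCGUA. The longest run shared by miR-10a-5p and miR-100-5p has 11 bases and is shown in capitals. miR-196a-5p in turn carries, at bases 2 to 8, a run of 7 bases that let-7a-5p, of the differentiation-promoting let-7 family, holds at bases 3 to 9.
miR-10a-5p: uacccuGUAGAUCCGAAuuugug
miR-100-5p: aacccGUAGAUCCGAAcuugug
miR-196a-5p: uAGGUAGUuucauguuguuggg
let-7a-5p: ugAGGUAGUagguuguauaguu

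The seed of miR-99 and miR-100 summed to 27839 to 33653 RPM in a library and ranked 5, and that of let-7, with 9 names, summed to 156547 to 176916 RPM and ranked 2. These runs are offset by a base, so the seeds themselves differ. miR-99b-5p stood at 21613, 18930 and 16735 RPM in control and at 16667, 17264 and 18854 RPM in TGF-beta libraries. miR-100-5p averaged 6428 ± 361 RPM in control and 6585 ± 476 RPM with TGF-beta, and miR-99a-5p at 5753 ± 249 and 5049 ± 507 RPM (SD, n = 3 each). Each was above miR-10a-5p in every library.

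Whether TGF-beta moved these miRNAs was tested with limma on log2(RPM + 1) over the 418 names that reached 1 RPM in 3 or more libraries. All 7 Hox-locus arms with a row were tested, and none passed the threshold of a Benjamini-Hochberg adjusted p under 0.05, in a comparison that called 33 of 418 names (7.89%). At an unadjusted p under 0.05 the count was also 0 of 7, against 64 of all 418 names. edgeR and DESeq2 on the recovered reads called 0 of 7 as well, and each called 29 of all 418 names. Such bulk values cannot tell fewer cells of a kind from less RNA per cell. The median log2 fold change of the 7 arms was 0.02, beside −0.05 over all tested names.

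The log2 fold change of the abundant miR-10a-5p was 0.02 (SE 0.12, 95% interval −0.23 to 0.27, limma adjusted p = 0.991), and that of miR-196a-5p was −0.01 (SE 0.11, interval −0.24 to 0.22, limma adjusted p = 0.999). As deposited, these intervals reach no further than 0.27 from 0. miR-615-3p went from 516 ± 10.5 to 443 ± 35.2 RPM (SD, n = 3 each), a log2 fold change of −0.22 (SE 0.13, interval −0.49 to 0.04, limma adjusted p = 0.411). miR-196b-5p went from 355 ± 6.72 to 315 ± 32.5 RPM, a log2 fold change of −0.17 (SE 0.13, interval −0.45 to 0.10, limma adjusted p = 0.616). Neither passed, and the deposited table of the authors gives unadjusted p-values of 0.0257 and 0.1097 for them. The groups did not overlap at these 2 of 7 arms, as they did not at 89 of the 418 tested names (21.3%), and at 51 of them (12.2%) the treated libraries were the lower ones.

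The lower arms were set against the share of miR-21a-5p, since shares of a library sum to a fixed total. After removal of miR-21a-5p and rescaling of the others, the median of all names moved up by 0.16. The log2 fold change of miR-615-3p was then −0.05 (limma adjusted p = 0.876), that of miR-196b-5p −0.00391 (0.987), that of miR-10a-5p 0.19 (0.449) and that of miR-196a-5p 0.16 (0.468). Relative to the median of all names, miR-615-3p stood at −0.17 as deposited and at −0.16 after rescaling, and miR-196b-5p at −0.13 and −0.11. When TGF-beta replicate 3, the library least correlated with its group, was omitted, miR-615-3p was at −0.29 (limma adjusted p = 0.0626). Over all omissions of a single library it ran from −0.29 to −0.19, with limma adjusted p from 0.0626 to 0.730. miR-196b-5p was at −0.09 once TGF-beta replicate 1, its lowest library, was left out (limma adjusted p = 0.867). Over all such omissions it ran from −0.23 to −0.09, with limma adjusted p from 0.186 to 0.867.

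**Figure D4:**
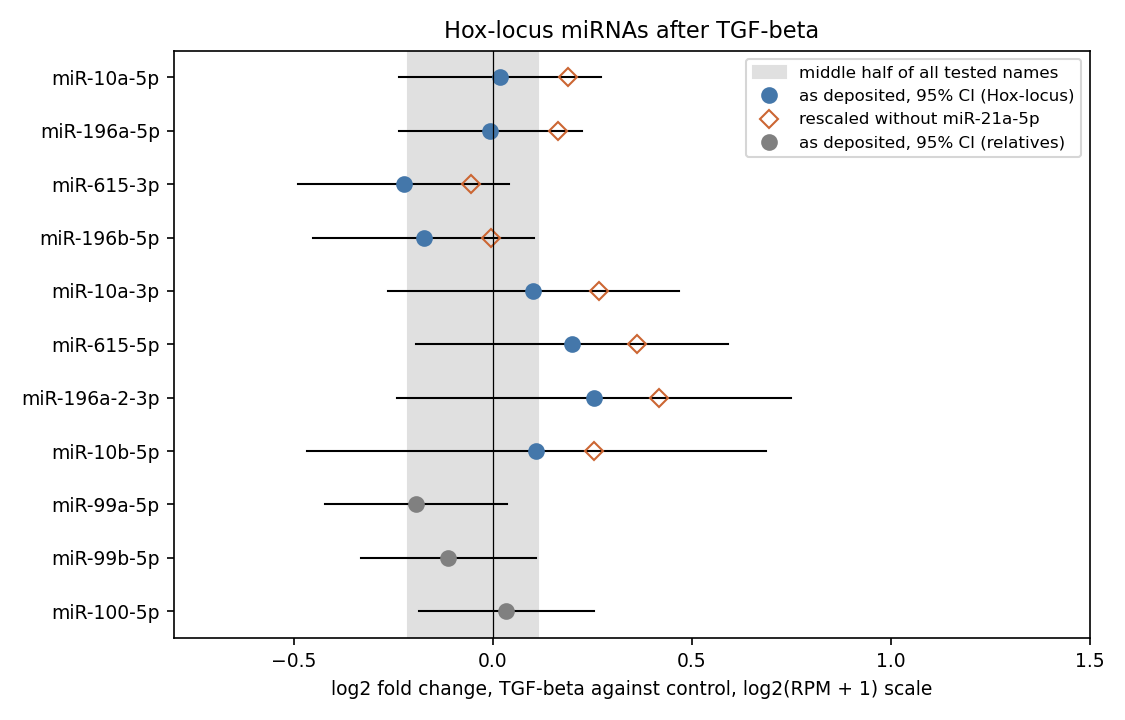
Log2 fold change of TGF-beta against control on the log2(RPM + 1) scale with 95% intervals from limma for the Hox-locus arms (blue) and for miR-99a-5p, miR-99b-5p and miR-100-5p (grey). Open diamonds give the values after rescaling without miR-21a-5p, for the Hox-locus arms only. The middle 50% of all tested names is shaded. All intervals hold 0. On rescaling all Hox-locus arms move up, miR-615-3p from −0.22 to −0.05, as does the median of all names, from −0.05 to 0.11. Relative to that median, miR-615-3p stands at −0.17 before and −0.16 after.

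The low arms had wide intervals. On the log2 scale miR-10a-3p differed by 0.10 (SE 0.17), miR-615-5p by 0.20 (SE 0.19) and miR-10b-5p by 0.11 (SE 0.27, interval −0.47 to 0.69). miR-615-5p differed by 0.081 when control replicate 2, its lowest library, was omitted (limma adjusted p = 0.971), and by 0.36 after rescaling (0.339). The passenger miR-196a-2-3p was at 0.25 (SE 0.24, interval −0.24 to 0.75, limma adjusted p = 0.689). Omitting TGF-beta replicate 3, its highest library, put it at −0.05 (limma adjusted p = 0.896). Of the 5 tested arms of miR-99a, miR-99b and miR-100, 0 passed, with log2 fold changes of −0.19 (SE 0.11) for miR-99a-5p, −0.11 (SE 0.10) for miR-99b-5p and 0.03 (SE 0.10) for miR-100-5p.

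The arms of a hairpin were also compared within each library. For miR-615, the log2 ratio of 5p over 3p was −6.23 ± 0.24 in control and −5.80 ± 0.15 with TGF-beta (SD, n = 3 each). It was higher in all 3 treated libraries, by 0.42 (SE 0.17, interval 0.01 to 0.83), with an unadjusted p of 0.0442 in limma and an adjusted p of 0.480 over 108 hairpins. The treated libraries were all the higher ones at 7 of these 108 hairpins (6.48%), miR-615 among them. The ratio of miR-10a was 7.76 ± 0.06 and 7.68 ± 0.25, a difference of −0.08 (SE 0.17, limma adjusted p = 0.877). In this comparison 0 of 108 hairpins (0%) passed, 11 had an unadjusted p under 0.05, and the smallest adjusted p was 0.212.

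The make-up of the Hox-locus reads was compared as well, a measure chosen after the values were seen. miR-10a-5p held 50.9% ± 3.29 of the reads of the 7 arms in control and 52.1% ± 1.85 with TGF-beta. miR-196a-5p held 36.3% ± 2.49 and 36.5% ± 2.38, miR-615-3p 7.41% ± 0.53 and 6.41% ± 0.43, and miR-196b-5p 5.09% ± 0.34 and 4.56% ± 0.28 (SD, n = 3 each). Two-sided exact permutation tests gave p = 0.6, 0.9, 0.2 and 0.2, and adjusted p = 0.8, 0.9, 0.4 and 0.4 over these 4 shares. The summed share of all miRNA reads had an exact permutation p of 0.8. The Hoxc share held by the miR-615 arms was 0.0522% ± 0.0010 in control and 0.0450% ± 0.0035 with TGF-beta (exact permutation p = 0.1, the smallest possible, and adjusted p = 0.4 over 8 shares and ratios). The Hoxa share held by miR-196b-5p was 0.0355% ± 0.00067 in control and 0.0315% ± 0.0032 with TGF-beta, with the same exact permutation p of 0.1 and adjusted p of 0.4.

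The names nearest in pattern were sought among the tested names averaging 10 RPM or more, by the root mean square difference of log2(RPM + 1), centred on each name, over the 6 libraries. For miR-10a-5p these were miR-130b-5p (0.066), miR-148b-5p (0.073) and miR-99b-5p (0.073), of 240 names. Like miR-10a-5p, miR-99b-5p was highest in control replicate 1. For miR-196b-5p they were miR-503-3p (0.058), miR-26a-5p (0.060) and miR-3057-5p (0.063). For miR-10b-5p, whose few reads scatter more, the nearest were miR-19b-3p, miR-221-5p and miR-1983, at 0.20, 0.21 and 0.21. None of these 9 names passed the limma test, as 33 of 418 tested names did. They were picked for likeness to arms that did not pass, so this adds no evidence.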

How the data were processed

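Small RNA of 6 C2C12 libraries was analysed, 3 control and 3 TGF-beta, grouped by the treatment label. The values the authors deposited under the heading TPM are RPM (reads per 1000000 miRNA reads, with no length correction): every column totals 1000000, and each value divides evenly by what 1 read is worth there. All values (100%) gave whole reads to within 0.01 read. The table also holds the authors' group means and an unadjusted p-value. The submitters' processing notes name the build mm9; the sources used here give no aligner, counting rule, annotation or mismatch rule.

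limma 3.58.1 (R 4.3.3, intensity trend) on log2(RPM + 1) was fitted over all 418 names that reached 1 RPM in 3 or more libraries; 647 names were untested. Fold changes on this scale understate those of low names. The arms of a hairpin, where both averaged 1 RPM or more, were compared by limma on the difference of their log2(RPM + 1) values. Single shares and ratios used two-sided exact permutation tests. The steps were tested on simulated data. edgeR 4.0.16 and DESeq2 1.42.0 on the recovered reads, different filters, scalings and pseudocounts, omission of single libraries and a replicate block were the alternatives.

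All listed arms with a row are named, with their passenger arms, the miR-99 and miR-100 relatives, miR-21a-5p and the 3 names nearest in pattern to each of 3 arms. Members and lists were chosen with earlier results of these data known. The origin of the replicates is not stated, so a p-value reflects only how far these libraries scatter, perhaps technically; chi-square per degree of freedom between replicates was 75.1 to 324, so none was counted as a copy.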

Additional observations from a re-analysis of the deposited data

How the results depend on the processing

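No Hox-locus arm passed under any of 16 alternatives, whose 110 fold changes included 14 with the sign turned, none of them a call. The signs of miR-10a-5p, miR-10a-3p, miR-10b-5p, miR-196a-5p and the summed share are therefore not given a direction. The same holds for miR-196a-2-3p, the ratio of miR-10b-5p to miR-10a-5p and the miR-10a arm ratio, whose signs also turned. Quantile normalization put miR-10a-5p at −0.053 (limma adjusted p = 0.896) and miR-196a-5p at 0.043 (0.784). miR-196a-5p was also at 0.047 with median scaling, 0.16 without miR-21a-5p, 0.062 with edgeR and 0.047 with DESeq2. The summed share differed by −0.00905 percentage points as deposited and by 0.106 without miR-21a-5p (exact permutation p = 0.2). With single libraries left out it ran from −0.0308 to 0.0215, the log2 ratio of miR-10b-5p to miR-10a-5p differed by −0.15 to 0.24, miR-10a-5p was at −0.067 to 0.13, miR-10a-3p at −0.029 to 0.23, miR-10b-5p at −0.22 to 0.31, miR-196a-5p at −0.050 to 0.030, miR-196a-2-3p at −0.046 to 0.45 miR-615-5p at 0.081 to 0.29, the log2 ratio of miR-196a-5p to miR-196b-5p at 0.087 to 0.26, the miR-615 arm ratio at 0.29 to 0.51 and the miR-10a arm ratio at −0.21 to 0.040. The cause was not tested.

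Over all names the count of calls was 33 as deposited, 19 without a filter, 19 with a mean of at least 10 RPM, 10 with quantile normalization and 17 to 36 with single libraries left out (18 without control replicate 1 and 17 without TGF-beta replicate 2). The split of 17 higher and 16 lower became 18 and 10 with median scaling, 19 and 10 with edgeR and with DESeq2, and 25 and 7 without miR-21a-5p. With the replicate block 32 names passed and still no Hox-locus arm. Same-numbered libraries did not deviate together (correlations of −0.0793, −0.0677 and −0.0843), so the numbers are not taken to pair them. With 8 to 28 reads a library, miR-10b-5p is limited by depth.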
